A study of Mus musculus with 9 samples.

Results

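The genes described here encode the ligands, binding proteins, receptors, SMAD proteins and ID targets of the BMP and TGF-beta pathways, and they were followed in brown fat cell cultures given either the signalling lipid LPA or an inhibitor of the enzyme that makes it. They were taken by a rule on symbols that used no measured value, but the rule was set with earlier results of these data known. It took Bmp, Smad, Tgfb, Tgfbr, Ltbp or Id followed by a digit, any Bmpr or Grem, and Nog, Smurf1, Smurf2, Skil, Ski, Eng and Tgfbi, with Tgfb1i1 left out. The rule found 45 genes among the 19858 that had a probe set naming 1 gene only. Of the 45, 39 were bright enough to be tested, with a mean above 5.59 on the log2 scale, the 40th percentile of all probe sets. The other 6, Bmp2, Bmp7, Bmp8b, Bmp10, Bmp15 and Bmpr1b, lay below that level in all 3 groups, while the 39 lay above it in all 3, so no gene was admitted by 1 group alone. The name rule also takes in Bmp1, a metalloprotease, and Bmp2k, a protein kinase, neither of which is a BMP ligand.

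The cells came from the interscapular brown fat pad of male C57BL/6 mice aged 5 weeks, and all cultures received insulin in rising doses until collection at about 9 days in vitro. The vehicle control received DMSO (subjects 1 to 3). A second group received the autotaxin inhibitor HA155 at 2.5 µM (subjects 4 to 6), and the last was given the 1-oleoyl form of lysophosphatidic acid (LPA), 5 µM, with subjects numbered 7 to 9. Autotaxin is the secreted enzyme that makes LPA, and the comparisons ask which genes respond to its inhibitor and which to its product. Each group held 3 Affymetrix gene arrays, 1 per numbered subject, and this number limits the precision. The labels do not say whether a subject is 1 animal or a pool, so p-values measure the spread between these samples. The labels do not settle whether the compounds were present throughout differentiation or added late. The plated cells were a fraction enriched in precursors, so each culture mixed adipocytes with undifferentiated cells, and in such bulk RNA fewer cells of a type and less RNA per cell cannot be told apart.

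TGF-beta and BMP ligands are secreted dimers that assemble a pair of type II and a pair of type I receptor kinases, which phosphorylate SMAD proteins that then enter the nucleus with SMAD4. TGF-beta signals mainly through SMAD2 and SMAD3 and is known as a brake on fat cell differentiation, whereas BMPs signal through SMAD1, SMAD5 and SMAD9, and several of them favour commitment to the white or brown fat lineage. Both arms switch on their own inhibitors, SMAD6, SMAD7, SKIL and the SMURF ubiquitin ligases, and the ID genes are classical BMP targets whose products block bHLH transcription factors.

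The array medians lay between 70.7 and 72.8 in intensity units. The LPA arrays stood apart from the other 6 on the first principal component, which held 66.7% of the variance, at 19.6 to 28.7 against -15.5 to -7.28. The median SD of the genes tested was 0.074 log2 units in control, 0.054 with HA155 and 0.107 with LPA, and the median SE of a difference between LPA and control was 0.076.

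With LPA, 23 of the 39 genes rose and none fell at a limma adjusted p below 0.05, where 12.2% of all 13335 genes tested rose and 10.8% fell. The median log2 change of the 39 genes was 0.29, against 0.0052 over all genes tested, and the changes ran from -0.13 (Smurf1) to 0.76 (Id2). The LPA and control arrays did not overlap, with LPA higher, for 26 of the 39 and for 17.5% of all genes, and with LPA lower for 1 (Smurf1) and for 15.6% of all genes. An unadjusted limma p below 0.05 was reached by 29 of the 39 and by 34.3% of all genes. Over the 3 groups together, limma's moderated F test passed 20 of the 39, where 24.5% of all genes passed. The heat map of single arrays shows that the rises lay in the 3 LPA columns.

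**Figure D1:**
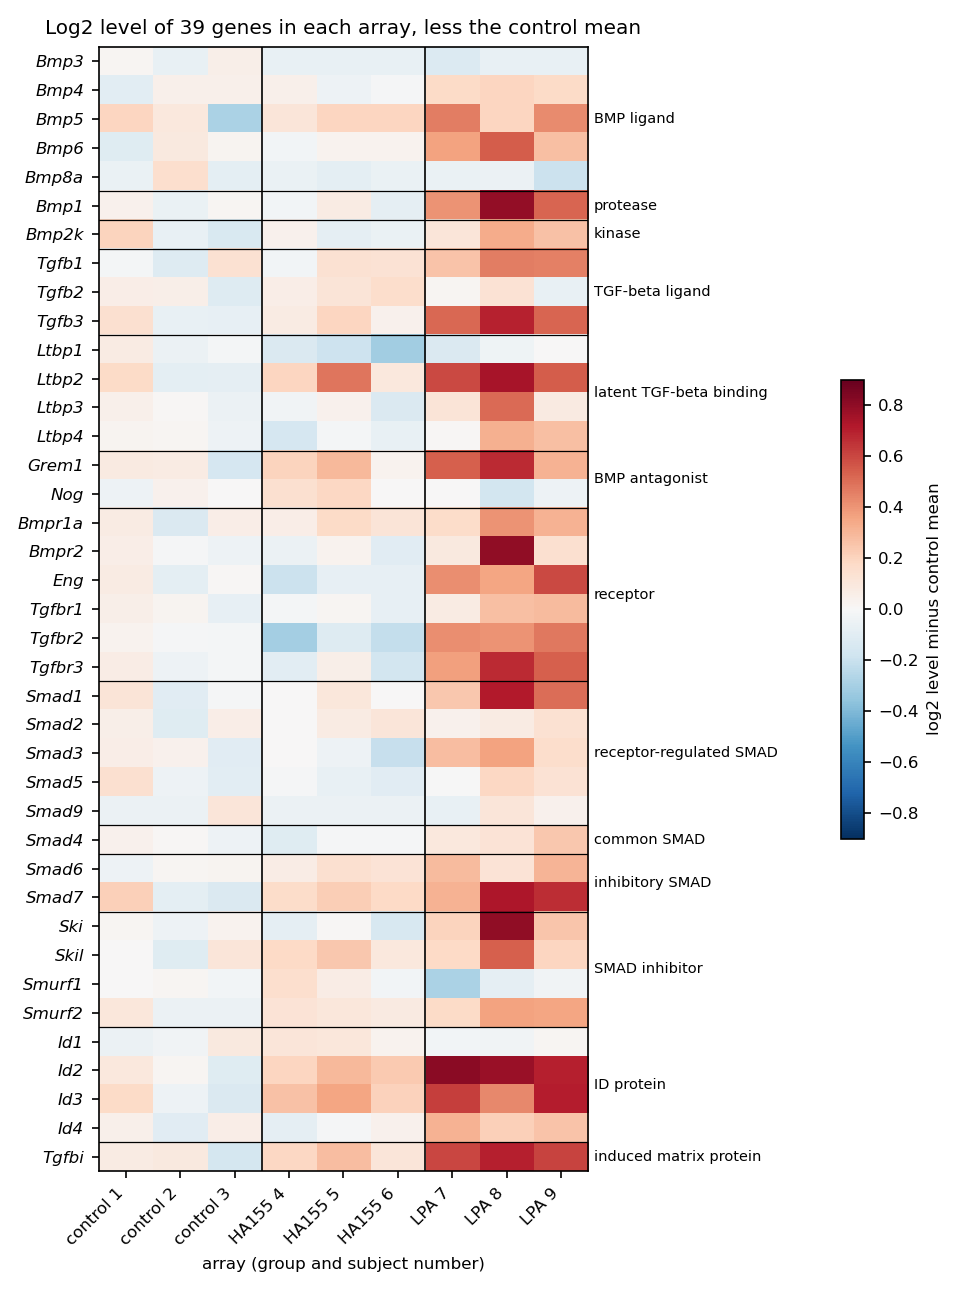
Each cell is the log2 level of 1 gene (rows, grouped by role) in 1 array (columns, named by group and subject number), less that gene's mean over the 3 control arrays; red is higher and blue is lower. The LPA columns are red for most rows, Id2 and Tgfbi are high in all 3 LPA arrays, and Ski and Bmpr2 stand out in LPA array 8.

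Markers of cell types moved with these changes, and their part in them was not tested. Of all genes tested, 12.2% rose with LPA and 10.8% fell. All 10 general adipocyte markers fell with LPA (median -1.29), and their summed intensity ran from 24022 to 25201 in control, 25087 to 27002 with HA155 and 11509 to 12902 with LPA. Of 9 preadipocyte and fibroblast markers 5 rose and 1 fell (Lum), with sums of 16423 to 17520 in control, 14791 to 16122 with HA155 and 20552 to 21335 with LPA; Pdgfrb rose by 0.70 and Thy1 by 0.76. Of 9 tested mural and smooth-muscle markers 3 rose and 1 fell. The sums take in every measured marker of a list, also those under the filter. Over the 10 measured here they were 2790 to 3108 in control, 3245 to 3792 with HA155 and 3839 to 4026 with LPA. Of 11 tested skeletal-muscle markers 6 rose, and the sums over the 12 measured were 1422 to 1509, 1431 to 1566 and 1897 to 2196 in the same order of groups. Of these genes Acta2 and Tagln are also on the list of TGF-beta targets. Endothelial sums, over the 12 markers measured, overlapped between control (822 to 886) and LPA (852 to 875), with 788 to 828 with HA155. Of the endothelial markers, Tek rose (0.37) and Sox18 fell (-0.47) among 8 tested, while Pecam1, Kdr, Emcn and Erg lay under the filter. The share called, 25%, lies near the 23.0% of all genes called in either direction.

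No macrophage marker of 5 tested and no proliferation marker of 11 tested passed in any of the 3 comparisons. Of the proliferation markers, 4 had an unadjusted limma p below 0.05 for LPA against control, as did 34.3% of all genes. Macrophage sums, over the 10 markers measured, were 680 to 809 in control, 893 to 1043 with HA155 and 682 to 989 with LPA. Proliferation sums were 4073 to 4541, 4467 to 4619 and 4521 to 5013 in the same order. Of the brown adipocyte markers, 6 of 10 were above the filter, of which 3 fell with LPA and 1, Zic1, rose. The sums over all 10, also those under the filter, were 1740 to 1808 in control, 2569 to 2718 with HA155 and 1061 to 1225 with LPA. Ucp1, Cidea, Dio2 and Elovl3 had means under the filter, and of these 4 genes, which mark active brown fat, only Cidea with HA155 lay above it in a group (mean 6.39).

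Among the BMP ligands, Bmp6, which is made by many tissues and is best known for its part in iron sensing, had log2 levels of 6.67, 6.87 and 6.80 in the control arrays, 6.75, 6.81 and 6.81 with HA155 and 7.15, 7.32 and 7.05 with LPA. All LPA arrays lay above all others. Bmp6 rose by 0.39 with LPA (SE 0.078, limma adjusted p = 0.00375, n = 3 each). Bmp4, a ligand that commits mesenchymal precursors to the fat lineage, measured 6.49, 6.63 and 6.63 in control and 6.75, 6.77 and 6.76 with LPA. Its rise of 0.18 passed narrowly (limma adjusted p = 0.0496) and was lost in 16 of 17 alternative fits. Bmp5 rose by 0.36 (limma adjusted p = 0.0442), but control array 3 (5.98) lay below the other control arrays (6.47 and 6.37), and without it the difference was 0.22 (limma adjusted p = 0.132). The LPA arrays of Bmp5 (6.73, 6.47 and 6.70) overlapped the controls. Control array 1, HA155 arrays 5 and 6 and LPA array 8 held 1 identical value. Bmp3 and Bmp8a did not pass, with changes of -0.087 and -0.10. For Bmp3, control array 2, all HA155 arrays and LPA arrays 8 and 9 held 1 identical value. For Bmp8a, control array 1, HA155 arrays 4 and 6 and LPA array 7 did. Bmp7, a ligand known to drive brown fat differentiation, and Bmp2 lay under the intensity filter, at means of 5.58 and 4.77 in control and 5.35 and 4.76 with LPA, so that no change is read from them.

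Bmp1, the protease that cleaves procollagen and the BMP antagonist chordin, rose by 0.57 (SE 0.092, limma adjusted p = 0.000891), from 10.36, 10.27 and 10.34 in control to 10.73, 11.12 and 10.85 with LPA. The HA155 arrays lay among the controls, at 10.30, 10.40 and 10.24. Bmp2k measured 0.23 and did not pass (limma adjusted p = 0.0987).

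The TGF-beta ligands did not move as a set. Tgfb3 had log2 levels of 8.04, 7.83 and 7.83 in control, 7.97, 8.09 and 7.94 with HA155 and 8.42, 8.59 and 8.42 with LPA, and rose by 0.58 (SE 0.079, limma adjusted p = 0.000325). For Tgfb1, the most widely made isoform, the control arrays held 7.45, 7.35 and 7.60 and the LPA arrays 7.72, 7.93 and 7.93, a rise of 0.39 (limma adjusted p = 0.00599). LPA and control did not overlap for either gene. Tgfb2 measured 6.86, 6.85 and 6.68 in control and 6.82, 6.93 and 6.73 with LPA, so that the groups overlapped, and its difference was 0.027 (95% interval -0.13 to 0.19).

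Latent TGF-beta binding proteins tether the inactive ligand to microfibrils of the matrix, although LTBP2 is the one that does not bind TGF-beta itself. Ltbp2 was the only one of the 4 that rose against control, by 0.63 (SE 0.11, limma adjusted p = 0.00140), from 9.28, 9.03 and 9.03 to 9.71, 9.86 and 9.66. Its HA155 arrays, at 9.31, 9.60 and 9.21, overlapped the controls and stayed below every LPA array. Ltbp3 (0.24), Ltbp4 (0.20) and Ltbp1 (-0.056) did not pass. For Ltbp3 the LPA arrays held 10.00, 10.40 and 9.96, so that array 8 stood apart, and without it the difference was 0.097.

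Of the secreted BMP antagonists Grem1 (gremlin) rose and Nog (noggin) did not pass. Grem1 held 6.92, 6.92 and 6.69 in control, 7.04, 7.13 and 6.88 with HA155 and 7.38, 7.51 and 7.15 with LPA. The rise was 0.51 (SE 0.10, limma adjusted p = 0.00441), and every LPA array lay above every other. Nog measured -0.068 with LPA (95% interval -0.22 to 0.083), near the dim end of the genes tested at a control mean of 6.20 ± 0.04 (SD, n = 3).

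Of 6 receptor genes tested 4 rose with LPA, where 12.2% of all genes tested rose. They were Tgfbr2, Tgfbr3, Eng and Bmpr1a, and the remaining ones, Tgfbr1 and Bmpr2, did not pass. Tgfbr2, the type II receptor that binds TGF-beta first, had log2 levels of 9.20, 9.16 and 9.15 in control, 8.86, 9.05 and 8.95 with HA155 and 9.59, 9.57 and 9.64 with LPA. The 3 groups did not overlap, with HA155 lowest. Its rise with LPA was 0.43 (SE 0.061, limma adjusted p = 0.000404). Tgfbr3, the co-receptor betaglycan that presents TGF-beta2, rose by 0.53 (limma adjusted p = 0.000992), from 10.64, 10.53 and 10.56 to 10.94, 11.25 and 11.12. Eng (endoglin), a co-receptor of endothelial and mesenchymal cells, rose by 0.46 (limma adjusted p = 0.00111), from 8.74, 8.58 and 8.68 to 9.08, 9.02 and 9.26. LPA and control did not overlap for any of these, and the HA155 arrays of Tgfbr3 (10.48, 10.63 and 10.41) and Eng (8.47, 8.59 and 8.59) overlapped the controls.

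Bmpr1a, a type I BMP receptor, rose by 0.29 (limma adjusted p = 0.0183), from 9.81, 9.61 and 9.80 to 9.91, 10.14 and 10.05, and 3 of 18 alternative fits did not call it. Tgfbr1, the type I TGF-beta receptor, measured 0.21 (limma adjusted p = 0.0556), with LPA arrays at 8.70, 8.90 and 8.91 and control arrays at 8.68, 8.65 and 8.55. Bmpr2, the BMP type II receptor, held 9.40, 9.33 and 9.29 in control and 9.43, 10.14 and 9.48 with LPA. Its difference of 0.34 did not pass (limma adjusted p = 0.133) and was 0.12 without LPA array 8. The plot of ligand and receptor levels by array shows the tight LPA values of Tgfbr2 beside the single high array of Bmpr2 and Ski.

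**Figure D2:**
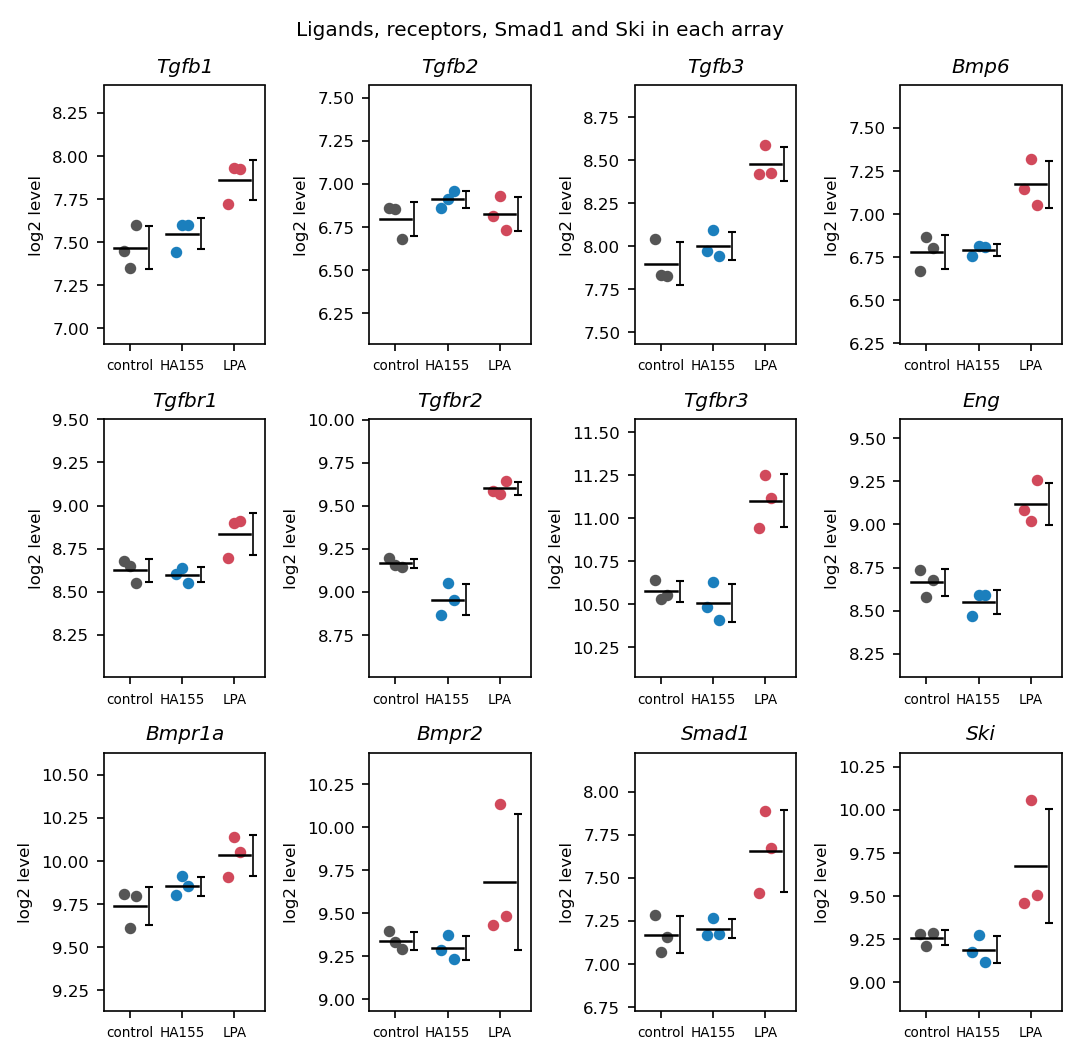
Log2 level (vertical axes, each spanning the same range of log2 units) of 12 genes in the 3 control, 3 HA155 and 3 LPA arrays; each point is 1 array, the line is the group mean and the bar at its right is ± 1 SD. LPA arrays lie above all control arrays in every panel except that of Tgfb2, and LPA array 8, the middle point of its group, is the highest for Bmpr2 (10.14) and Ski (10.06).

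Among the SMADs that receptors activate, Smad1 of the BMP arm and Smad3 of the TGF-beta arm rose, while Smad2, Smad5 and Smad9 did not pass. Smad1 held 7.28, 7.07 and 7.16 in control, 7.17, 7.27 and 7.18 with HA155 and 7.41, 7.89 and 7.67 with LPA, a rise of 0.49 (SE 0.11, limma adjusted p = 0.00643). Smad3 rose by 0.26 (limma adjusted p = 0.0325), from 8.44, 8.41 and 8.27 to 8.65, 8.74 and 8.53, and 7 of 18 alternative fits did not call it. The 95% intervals of the differences were -0.060 to 0.23 for Smad2, -0.062 to 0.27 for Smad5 and -0.12 to 0.18 for Smad9. Control arrays 1 and 2 and all 3 HA155 arrays of Smad9 held 1 identical value. Smad4, the partner shared by both arms, measured 0.15 against control (limma adjusted p = 0.104).

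Both inhibitory SMADs and 3 of 4 other inhibitors inside the pathway rose, where 12.2% of all genes tested rose, and Smurf1 did not pass. Smad7, which blocks the TGF-beta and BMP receptors, had log2 levels of 7.21, 6.91 and 6.87 in control, 7.16, 7.22 and 7.17 with HA155 and 7.31, 7.73 and 7.66 with LPA. It rose by 0.57 (SE 0.11, limma adjusted p = 0.00397), with control array 1 closest to the LPA arrays. Smad6, which acts chiefly on the BMP arm, rose by 0.24 (limma adjusted p = 0.0187), from 7.47, 7.54 and 7.54 to 7.80, 7.64 and 7.82, and 4 of 18 alternative fits did not call it. Smurf2, an E3 ubiquitin ligase that SMAD7 brings to the receptors, rose by 0.30 (limma adjusted p = 0.0109), from 8.82, 8.67 and 8.66 to 8.89, 9.08 and 9.07. A dimmer probe set of the same gene, which was not tested, differed by 0.18. Smurf1, its paralogue, measured -0.13 (limma adjusted p = 0.250), with the LPA arrays at 8.49, 8.70 and 8.75 and the control arrays at 8.79, 8.80 and 8.75.

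The nuclear co-repressors Ski and Skil also passed against control, and LPA array 8 set much of the size of both. Ski held 9.28, 9.21 and 9.29 in control and 9.46, 10.06 and 9.51 with LPA. Its rise of 0.42 (SE 0.13, limma adjusted p = 0.0414) was 0.22 without LPA array 8 (limma adjusted p = 0.0273), and 9 of 18 alternative fits did not call it, at a limma adjusted p of up to 0.123. Skil rose by 0.30 (limma adjusted p = 0.0471), and without that array the difference was 0.19 (limma adjusted p = 0.108). LPA array 8 was the highest of the 3 LPA arrays for 24 of the 39 genes, and for 31.6% of all genes tested. Left out of the fit, it gave 19 of 39 genes that rose with LPA and none that fell, with a median change of 0.22. In that fit 12.4% of all genes tested rose, and 22.9% were called in either direction.

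The ID genes, which encode helix-loop-helix proteins without a DNA-binding region, held both the largest change of the 39 genes and one of the smallest. Id2 had log2 levels of 9.43, 9.36 and 9.24 in control, 9.53, 9.64 and 9.58 with HA155 and 10.15, 10.12 and 10.04 with LPA. None of the 3 groups overlapped, and control was lowest. The rise with LPA was 0.76 (SE 0.067, limma adjusted p = 1.45e-05, n = 3 each), a fold of 1.70. Id3 ran in the same order, from 8.86, 8.64 and 8.56 over 8.95, 9.04 and 8.89 to 9.30, 9.12 and 9.39, and rose by 0.59 (SE 0.092, limma adjusted p = 0.000804). Id4 rose by 0.26 (SE 0.065, limma adjusted p = 0.0130), from 9.21, 9.06 and 9.22 to 9.48, 9.38 and 9.42, and its HA155 arrays (9.08, 9.15 and 9.21) overlapped the controls. Id4 was not called in 1 of 18 alternative fits, the one without control array 2. Id1, often used as the readout of BMP signalling, measured 8.85, 8.87 and 8.99 in control, 9.01, 9.01 and 8.94 with HA155 and 8.89, 8.87 and 8.92 with LPA. Its difference was -0.013, with a 95% interval of -0.14 to 0.12 that lay below the changes of Id2, Id3 and Id4. The 4 ID genes sit side by side in the plot of target genes by array.

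**Figure D3:**
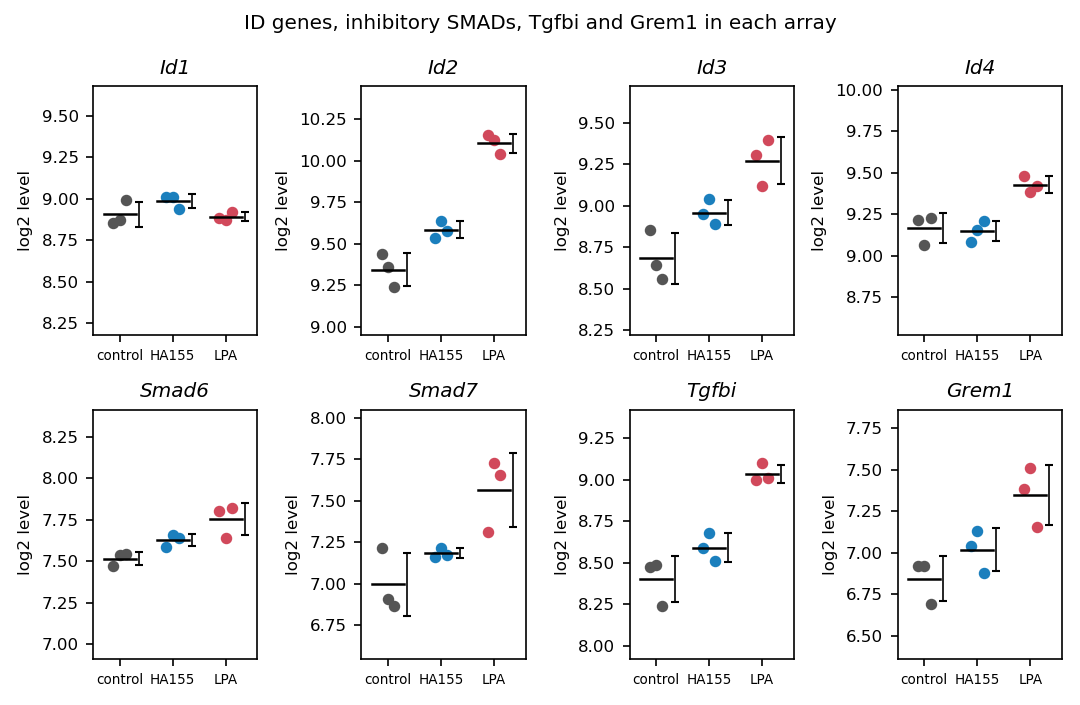
Log2 level (vertical axes, each spanning the same range of log2 units) of the 4 ID genes, Smad6, Smad7, Tgfbi and Grem1 in the 3 control, 3 HA155 and 3 LPA arrays; points are arrays, lines are group means and bars are ± 1 SD. Id2 and Id3 step up from control over HA155 to LPA with no overlap, whereas the Id1 groups of control and LPA overlap.

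Promoter sequences of 3 ID genes that rose and of Smad6 are shown because these are targets of SMAD proteins, and DNA motifs of SMAD proteins can be looked for in them. Each runs 5′ to 3′ on the gene's own strand, from 250 bases before the RefSeq start to 20 bases after it, with matches to the 3 motifs searched in capitals.
Id2 promoter (GRCm38.p6, chr12:25096073-25096342, minus strand): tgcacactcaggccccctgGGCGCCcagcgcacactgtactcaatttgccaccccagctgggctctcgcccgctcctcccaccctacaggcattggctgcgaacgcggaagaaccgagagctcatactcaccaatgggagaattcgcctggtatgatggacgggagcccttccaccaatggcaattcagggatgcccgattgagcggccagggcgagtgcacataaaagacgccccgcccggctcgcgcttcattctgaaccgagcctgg
Id3 promoter (GRCm38.p6, chr4:136143572-136143841, plus strand): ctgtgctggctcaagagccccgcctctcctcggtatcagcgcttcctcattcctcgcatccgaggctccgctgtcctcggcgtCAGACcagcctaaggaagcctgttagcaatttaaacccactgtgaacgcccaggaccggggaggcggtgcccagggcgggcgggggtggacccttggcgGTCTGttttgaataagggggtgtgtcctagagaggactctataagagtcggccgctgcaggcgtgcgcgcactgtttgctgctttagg
Id4 promoter (GRCm38.p6, chr13:48260866-48261135, plus strand): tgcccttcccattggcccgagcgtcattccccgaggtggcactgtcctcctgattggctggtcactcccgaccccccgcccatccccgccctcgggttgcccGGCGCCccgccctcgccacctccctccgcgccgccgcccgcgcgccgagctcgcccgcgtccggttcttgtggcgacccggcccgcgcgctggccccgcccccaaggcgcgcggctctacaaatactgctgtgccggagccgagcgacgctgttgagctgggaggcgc
Smad6 promoter (GRCm38.p6, chr9:64022040-64022309, minus strand): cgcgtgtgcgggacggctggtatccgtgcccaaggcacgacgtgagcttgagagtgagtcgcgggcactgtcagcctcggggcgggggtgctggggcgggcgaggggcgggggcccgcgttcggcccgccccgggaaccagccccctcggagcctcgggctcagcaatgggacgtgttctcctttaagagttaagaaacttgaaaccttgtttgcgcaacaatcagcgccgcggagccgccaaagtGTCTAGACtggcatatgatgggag

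The motifs were GGCGCC, the GC-rich element of BMP-responsive promoters, GTCTAGAC, the palindromic SMAD-binding element, and the shorter SMAD box CAGAC, each searched on both strands; the box is not part of the palindrome as written, and no printed matches overlap. Id2 and Id4 each held 1 GGCGCC, which began 231 and 148 bases before the start. Id3 held 2 CAGAC boxes, 167 and 68 bases before it. Smad6 held a full GTCTAGAC that began 4 bases before its start. Of the 32851 mouse promoters of this length in the RefSeq table, 10.4% held GGCGCC, 0.183% held GTCTAGAC and 45.4% held CAGAC. The table held 41 promoters of 33 of the 45 genes, of which 14, 1 and 20 held the respective motif, the one GTCTAGAC being that of Smad6. Id1 and Smad7 were among the genes without a promoter there, so they cannot be set beside the genes shown. A match is a description of letters, and binding was not measured in this study.

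Tgfbi, a secreted matrix protein named for its induction by TGF-beta, rose by 0.64 (SE 0.078, limma adjusted p = 0.000142), second to Id2 among the 39 genes. It held 8.47, 8.49 and 8.24 in control, 8.59, 8.68 and 8.51 with HA155 and 9.00, 9.10 and 9.01 with LPA, and none of the groups overlapped. Its neighbour on chromosome 13 in the GRCm38.p6 gene order, Smad5, did not pass (0.11), whereas Smad3 (0.26) and Smad6 (0.24), neighbours on chromosome 9, both rose. No other pair of the 45 lay side by side among protein-coding genes.

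With HA155 no gene of the 39 passed, where 1.03% of all genes tested did (0.607% higher and 0.427% lower), and 6 of the 39 had an unadjusted limma p below 0.05, against 8.11% of all genes. The median change was 0.013, from -0.21 (Tgfbr2) to 0.27 (Id3). The 6 were Id2 (0.24, limma adjusted p = 0.204), Tgfbr2 (limma adjusted p = 0.232), Ltbp1 (-0.21, limma adjusted p = 0.314), Id3 (limma adjusted p = 0.353), Tgfbi (0.19, limma adjusted p = 0.536) and Ltbp2 (0.26, limma adjusted p = 0.548). Beside these values, limma called 2 general adipocyte, 2 brown adipocyte and 1 skeletal-muscle markers higher with HA155. The preadipocyte marker Dlk1 was called lower (-0.82), and the part of these markers was not tested. HA155 and control arrays did not overlap for 7 of the 39, with HA155 higher for Id2, Id3, Smad6, Tgfb2 and Tgfbi and lower for Ltbp1 and Tgfbr2, where 8.87% of all genes lay higher without overlap and 7.90% lower, 16.8% together. A fit that weighted arrays by their quality called Id2 (limma adjusted p = 0.0463) and Id3 (limma adjusted p = 0.0490) higher with HA155. The 95% intervals of these differences were wide for some genes, such as -0.37 to 0.29 for Bmpr2 and -0.36 to 0.22 for Ski.

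The comparison with LPA shares the control arrays, so the values are set side by side without a test of likeness. For Tgfbr2 the changes were 0.43 with LPA and -0.21 with HA155. They were 0.46 and -0.11 for Eng, and 0.53 and -0.069 for Tgfbr3. The changes with LPA and HA155 were 0.76 and 0.24 for Id2 and 0.59 and 0.27 for Id3. The plot of changes with their intervals gives both comparisons for all 39 genes.

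**Figure D4:**
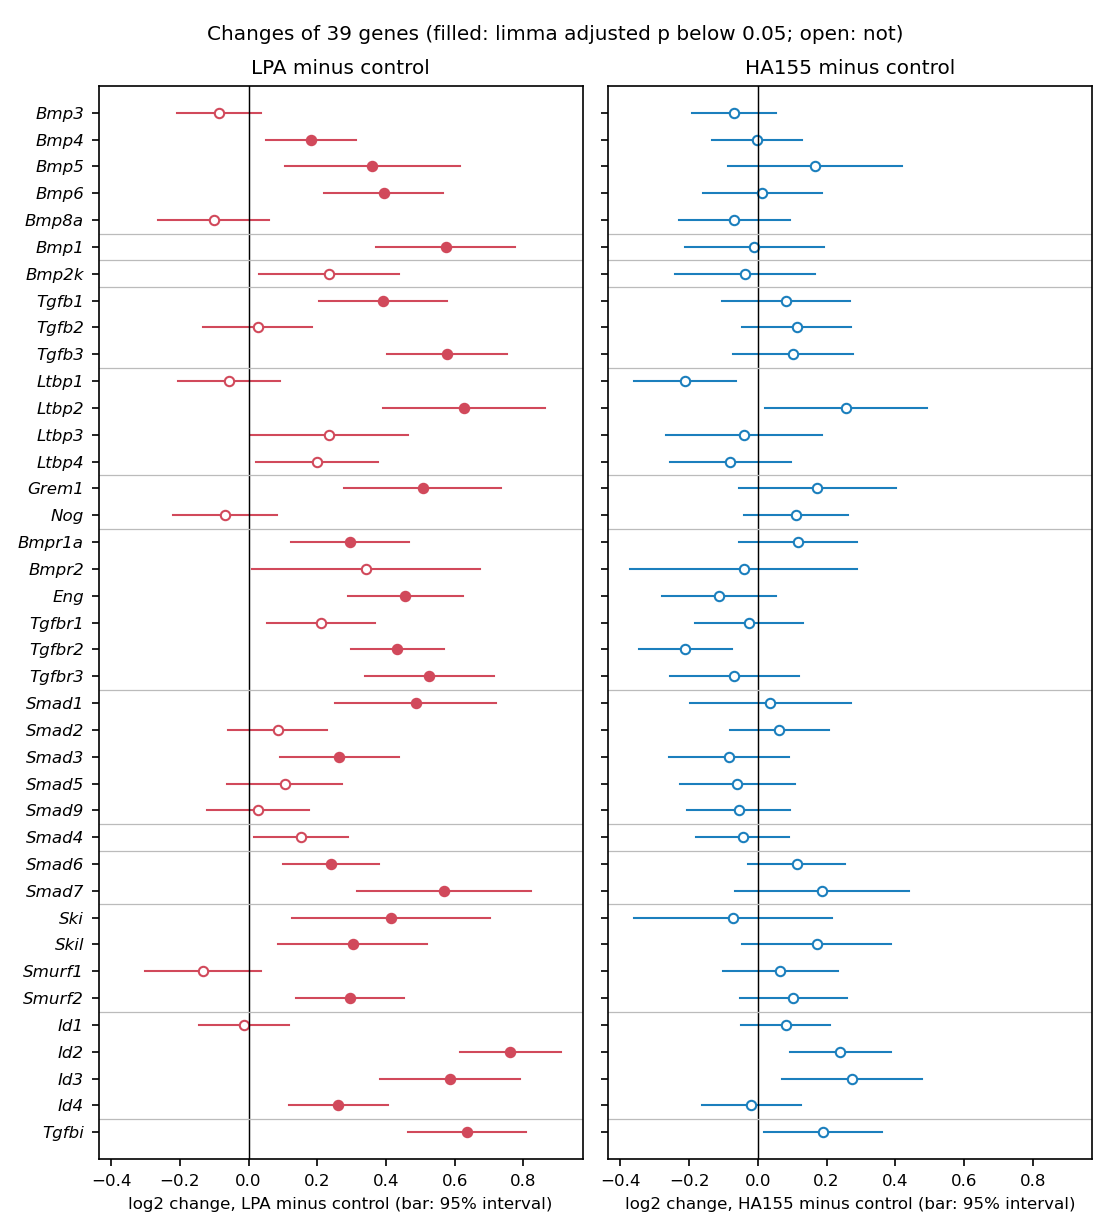
Log2 change against control (horizontal axis) of each of the 39 genes, with LPA on the left and HA155 on the right; points are limma estimates, bars are 95% intervals, filled points passed at a limma adjusted p below 0.05 and open points did not, and grey lines separate roles. With LPA 23 points are filled, all to the right of 0, and with HA155 none is filled.

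Compared directly with HA155, LPA gave higher levels of 21 of the 39 genes and lower levels of none, where 13.7% of all genes tested were higher and 12.4% lower, with a median difference of 0.28. An unadjusted limma p below 0.05 was reached by 29 of the 39 and by 35.6% of all genes. The largest difference was that of Tgfbr2, at 0.65 (SE 0.061, limma adjusted p = 1.86e-05), followed by Tgfbr3 (0.60), Bmp1 (0.58), Eng (0.57) and Id2 (0.52). Smad4 (0.20, limma adjusted p = 0.0362), Tgfbr1 (0.24, limma adjusted p = 0.0305) and Ltbp4 (0.28, limma adjusted p = 0.0250) passed here though not against control. In 8, 9 and 6 of 18 alternative fits, respectively, they did not pass here, and 5 of 18 fits called Tgfbr1 against control. Smad6, Skil, Smurf2, Bmp5 and Bmpr1a did not pass here, with differences of 0.13 to 0.19. The number of genes called was 11 without HA155 array 4 and 12 without HA155 array 6, all higher with LPA. The share of all genes tested that were higher was 10.1% and 9.94% in these fits, against 13.7% in the main fit. Smurf1 (-0.20) and Nog (-0.18) measured lower with LPA than with HA155 and did not pass (limma adjusted p = 0.0835 for both).

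The rest of the pathway was read from lists that leave out the 45 genes. Of all genes tested, 12.2% rose with LPA and 10.8% fell. Of 13 tested genes on a list named for latency and activation of TGF-beta, 10 rose with LPA (76.9%) and none fell, with a median of 0.49. They included the matrix protein thrombospondin 1 (Thbs1, 0.94), the integrin chains Itgb5 (0.68) and Itgav (0.53), the protease Mmp14 (0.67) and Lrrc32 (0.67), a surface protein that holds latent TGF-beta. Thbs1 held 11.51, 11.24 and 11.43 in control and 12.28, 12.39 and 12.32 with LPA (limma adjusted p = 1.85e-05). Emilin1 (0.49) also rose. The list is wider than its name: it also counts Tgfb1i1 (0.48), which rose, and Tgfbrap1 (0.096), which did not pass.

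Of 10 tested secreted antagonists 7 rose (70%, where 12.2% of all genes rose) and none fell, with a median of 0.36. Nbl1 rose by 0.79 (limma adjusted p = 8.98e-05), the chordin-like regulator Bmper by 0.64, the activin antagonist follistatin (Fst) by 0.49, Twsg1 by 0.44 and Fstl1 by 0.42. Fst measured -0.31 with HA155 (limma adjusted p = 0.0551). Of 11 tested activin and GDF ligands 3 rose, namely Inhba (0.65), which encodes activin A, Gdf10 (0.57) and Gdf11 (0.39), while Inhbb measured 0.17. That share of 27.3% called lies near the 23.0% of all genes called in either direction.

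Among 11 other receptors and co-receptors 6 rose and 1 fell, a share of 63.6% called where 23.0% of all genes were. The one that fell was Acvr1c, the activin receptor-like kinase ALK7 of fat cells, with a change of -2.19 (SE 0.10, limma adjusted p = 2.38e-07), from 8.75, 8.84 and 8.63 to 6.67, 6.28 and 6.68. The netrin and RGM receptor Neo1 rose by 0.69, and the receptors Acvr1b, Acvr2a and Acvr1 by 0.52, 0.48 and 0.43. Bambi, a decoy receptor, measured 0.055.

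Of 20 tested TGF-beta target genes 13 rose (65%, where 12.2% of all genes rose) and none fell, with a median of 0.35. Ccn2 (0.95), Timp1 (0.79), Itgb5, which the latency and activation list also holds, Snai2 (0.62) and Jun (0.46) had the smallest p, and Pmepa1, a feedback inhibitor of SMAD signalling, rose by 0.66. Ldlrad4 (0.23), Junb (0.23), Tsc22d1 (0.15), Cdkn2b (0.12), Klf10 (-0.090), Bhlhe40 (0.065) and Pdgfa (0.053) did not pass, named here after their values were seen. Many genes of this list answer to other pathways as well. Of 12 tested BMP target genes other than the ID and SMAD genes only Atoh8 rose (0.45, limma adjusted p = 0.000248), and none fell, a share of 8.33% called where 23.0% of all genes were called in either direction. Gata2 (0.26), Hey1 (-0.11), Msx1 (-0.099) and Tbx3 (0.096) did not pass. Against HA155, 4 of the 12 were called (33.3%, where 26.1% of all genes were): Atoh8 (0.37) and Gata2 (0.35) were higher with LPA, as was Hes1 (0.31), and Alpl was lower (-0.29), the last pair named after their values were seen.

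Of 24 tested SMAD partners and regulators 4 rose and 3 fell, a share of 29.2% called that lies near the 23.0% of all genes. The anti-proliferative protein Tob1, known as a repressor of BMP SMADs, fell by 0.93 on the log2 scale, while the phosphatase Ctdsp2 rose by 0.58 and the repressors Tgif1 and Zeb1 by 0.46 and 0.37. Pmepa1 (0.66), which the TGF-beta target list also holds, was the remaining gene that rose. The others that fell were Nedd4l (-0.33) and Usp15 (-0.23), named here after their values were seen. Of 10 tested proteins that ID proteins bind or oppose 4 rose and 1 fell: the E proteins Tcf4 (0.41) and Tcf12 (0.27), Twist1 (0.32) and Twist2 (0.25) rose and the lipogenic factor Srebf1 (-1.16) fell. Twist2 was the one gene of all these lists called with HA155, at -0.33 (limma adjusted p = 0.0380). That is 1 of 107 genes (0.935%), near the 1.03% of all genes, and with no filter or with median centring no gene of these lists was called. Over all lists 46 of 107 genes rose with LPA and 5 fell, a share of 47.7% called where 23.0% of all genes were. The bar plot of called shares sets each list beside all genes tested.

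**Figure D5:**
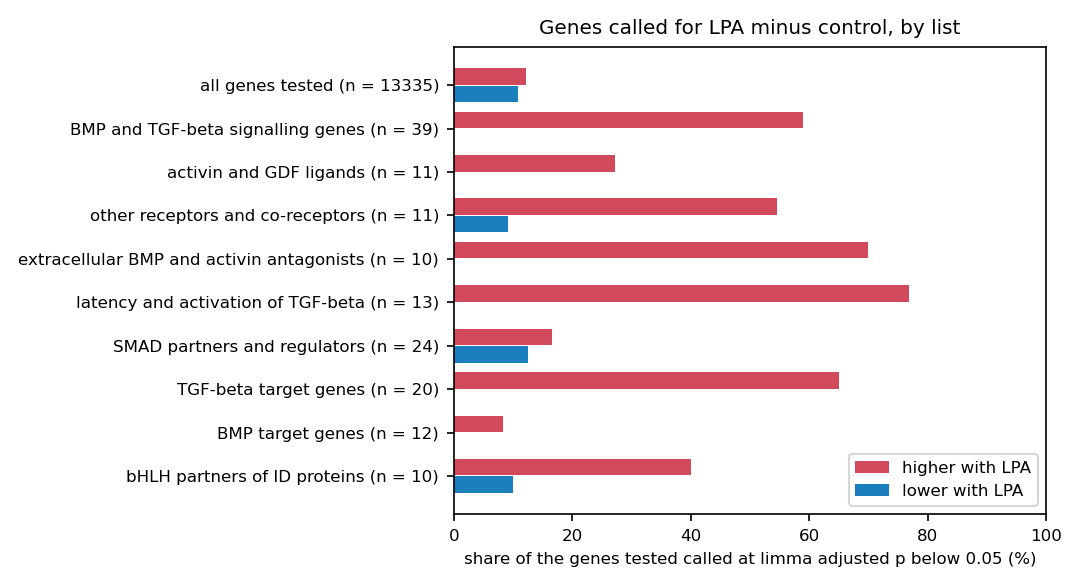
Share of the tested genes of each list (horizontal axis, percent; n is the number tested) called at a limma adjusted p below 0.05 for LPA against control, red for higher and blue for lower. The 39 BMP and TGF-beta genes, the latency and activation list, the secreted antagonists and the TGF-beta targets have red bars only and longer than that of all genes (12.2%), while the bar of the BMP targets (8.33%) is shorter.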

How the data were processed

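The values were the intensities that the authors deposited, 1 column per array on a linear scale, and the submitters' processing notes name RMA, whose version and settings are not given in the sources used here. Each intensity was converted to log2 with no offset. Of 35432 probe sets 21706 named 1 gene in the platform annotation, 1605 named several and 12121 were not listed; the brightest single-gene probe set stood for each gene. Genes with a mean log2 value under the 40th percentile of all probe sets (5.59, an intensity of 48.2) were left out. Every column of values belonged to a sample.

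All 9 arrays were fitted together with limma 3.58.1 in R 4.3.3, with a mean per group, no block and eBayes, two-sided, with Benjamini-Hochberg adjustment over 13335 genes and a threshold of 0.05. Intervals are 95% and come from that fit. The code was tested on simulated data with known changes. The labels name no batch, so a batch and the treatments cannot be told apart. An exact permutation test of 3 arrays against 3 cannot go below 0.1 and was not used. The 45 genes and all lists were chosen with earlier results of these data known. Every gene of the rule was named. Of the other pathway lists, the 5 of smallest p for LPA against control and a few set receptors, ligands and targets were named. Further genes of these lists were added after their values were seen. Of each marker list up to 3 were named, besides defining markers under the filter and Dlk1, which was added after its values were seen. Alternatives changed the filter, offset, centring, probe set rule, prior, array weights, the groups in the fit and 1 array at a time, 18 fits in all. Promoters came from a RefSeq table of GRCm38.p6, and 33 of the 45 genes matched.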

Additional observations from a re-analysis of the deposited data

How the results depend on the processing

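With LPA against control, 16 to 23 genes of the rule rose over the 18 alternative fits, and none of the 23 called changes turned its sign. The fit with no filter tested 45 genes of the rule, the filter at the 60th percentile 33 and the other fits 39. In the same fits 7.06% to 17% of all genes tested rose. Among the genes not called, Smad9 turned sign in 4 fits (-0.014 to 0.083), Tgfb2 in 3 (-0.030 to 0.074) and Id1 in 1 (-0.040 to 0.031). Called in every fit were 15 genes: Bmp1, Bmp6, Eng, Grem1, Id2, Id3, Ltbp2, Smad1, Smad7, Smurf2, Tgfb1, Tgfb3, Tgfbi, Tgfbr2 and Tgfbr3. Bmp4, Bmp5 and Skil lost their call most often, in 16 of 17, 10 of 17 and 12 of 18 fits; the cause was not tested. Against HA155, 11 of the 21 calls held in every fit, and leaving out 1 array gave 11 to 22 called genes. Those fits called 19.4% to 26% of all genes tested. Quantile normalization called Nog lower than with HA155 (-0.21, limma adjusted p = 0.0489), and array weights and the fit without LPA array 9 called Smurf1 lower (-0.26, limma adjusted p = 0.0278, and -0.25, limma adjusted p = 0.0432).

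With HA155 against control, array weights called 2 of the 39 genes, where 2.53% of all genes were called, and the other fits none. Of the other pathway genes 1 was called; the number was 0 with no filter or with median centring, 2 with the stricter filter, an offset of 16, a second quantile normalization, a trended prior or only 2 groups in the fit, 5 with array weights, and 0 to 5 with 1 array left out. For the marker lists, a count added after seeing the data, it was 6, and 10 with array weights. No paired analysis was possible because no subject number recurs between groups. Signal over background limits Bmp2, Bmp7 and the 4 other genes under the filter.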
